A study of Saccharomyces cerevisiae with 18 samples.

Results

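The proteins of the small subunit of the cytosolic ribosome are encoded in Saccharomyces cerevisiae by 57 genes, 57 of the 6612 transcripts in the deposited table. They were chosen by name: every gene whose standard name is RPS with a number and an optional A or B, plus ASC1, without the mitochondrial MRPS genes. The genes encode 33 proteins. Of the 57, 48 form 24 A and B pairs of paralogs, and 9 are single copies, among them RPS12, RPS15, RPS20, RPS31 and ASC1. By the position of the protein in the subunit, 23 genes belong to the head and 34 to the body and platform. An intron interrupts 37 of them.

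Messenger RNA was sequenced in 18 libraries, 3 biological replicate cultures for each of 6 groups. The groups combine the strains RM11, of vineyard origin, and YJM975, isolated in a clinic, with synthetic medium that held 2% glucose, 2% glycerol or 2% ethanol. Both strains were homozygous diploids, and the labels name no deletion and no added agent. Cells were taken from growing 5 mL cultures at an optical density between 0.5 and 1.0, and polyadenylated RNA was used. The series compares its strains in each medium and the media in each strain, and the same contrasts are described here for the small subunit.

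The small subunit binds messenger RNA, scans for the start codon and checks the match between codon and transfer RNA, while the large subunit forms the peptide bond. Growing yeast cells devote a large part of their transcription by RNA polymerase II to ribosomal protein genes, and these genes are textbook targets of nutrient signalling through TORC1, Sch9 and protein kinase A, acting through the factors Rap1, Fhl1, Ifh1 and Sfp1. Most of the pairs arose in an ancient whole-genome duplication, and the copies of a pair encode the same or nearly the same protein from different promoters.

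Values are TPM, abundances scaled for transcript length, in which each library sums to 1000000. TPM is relative, keeps no depth and gives no counting interval, so the precision rests on the spread between replicates. A lower TPM may be less of that mRNA or more of all the other mRNA, which cannot be told apart. Across genes, Pearson's r between replicate libraries was 0.995 to 0.998, and no columns were identical. The libraries labelled glucose carry a run label of their own and the glycerol and ethanol libraries share another, so that glucose against the other media and run cannot be told apart. Levels of carbon-responsive genes go against some labels, though not against all. HXK2, the hexokinase of growth on glucose, averaged 2.30 (RM11) and 5.08 TPM (YJM975) under the glucose label and 71.3 TPM in RM11 under the glycerol label, and ICL1, which glucose represses, averaged 1791 and 401 TPM under the glucose label. In YJM975, however, HXK2 averaged 1.84 TPM under the glycerol label, and ICL1 averaged 464 and 1870 TPM under the glycerol and ethanol labels. ADH2, another gene of the response to glucose, averaged 144 (RM11) and 72.7 TPM (YJM975) under the glucose label. It averaged at least 250 TPM in each other group. FBP1 was instead highest under the glucose label in each strain, at 809 and 353 TPM. HXT1, also of the response to glucose, was lowest under the glucose label in each strain, at 2.20 (RM11) and 1.37 TPM (YJM975). MLS1 and PCK1, of the same response, were highest under the glucose label in RM11, at 2008 and 755 TPM. In YJM975 they were highest under the ethanol label, at 1292 and 397 TPM. Media are therefore given as labelled throughout. Of the genes that diploids repress, GPA1 was at 1.75 to 10.6 TPM as group means, while MFA1, the a-factor gene, was at 152 to 586 TPM.

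The copies of a pair are similar in sequence, and how far the software could tell them apart differs from pair to pair. Over the 24 pairs the coding sequences of strain S288C (RefSeq, assembly R64) were 84.3% to 99.2% identical, with a median of 92.7%. The share of 31-base words of the A copy that recur in the B copy, a measure of how many reads match both, ranged from 0% in RPS27 to 79.7% in RPS6. RPS26 and RPS6 are shown because the A share of RPS26 moved widely between groups and that of RPS6 did not. Below are the first 120 coding bases of each copy, with the bases at which the copies differ in capitals.
RPS26A: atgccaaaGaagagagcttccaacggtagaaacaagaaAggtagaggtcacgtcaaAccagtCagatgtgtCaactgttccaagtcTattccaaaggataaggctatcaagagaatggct
RPS26B: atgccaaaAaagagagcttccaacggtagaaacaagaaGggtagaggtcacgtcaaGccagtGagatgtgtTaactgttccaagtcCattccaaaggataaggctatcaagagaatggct
RPS6A: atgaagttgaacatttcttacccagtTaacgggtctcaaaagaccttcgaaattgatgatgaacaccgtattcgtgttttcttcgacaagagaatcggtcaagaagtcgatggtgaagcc
RPS6B: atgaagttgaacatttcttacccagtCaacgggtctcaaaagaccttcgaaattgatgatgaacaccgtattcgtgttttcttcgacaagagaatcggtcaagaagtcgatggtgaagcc

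The RPS26 copies differ at 6 of these 120 bases and at 28 of 360 in all. The RPS6 copies differ at 1 of 120 and at 6 of 711 in all. Reads that match both copies are divided between them by a statistical estimate, so the values of single copies are less certain in RPS6, RPS4 (60.7% of words shared) and RPS24 (53.7%) than in RPS27, RPS25 (1.68%) or RPS22 (1.93%). RM11 and YJM975 may differ in sequence from the transcripts that were used, which no source here names, and any effect of this on the values was not tested.

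The sequences before the start codon of 2 pairs follow. The windows of RPS27 and RPS9 are shown because these pairs had the widest ranges of A share over the groups. Each window holds the 300 bases from 400 to 101 bases before the start codon on the gene's own strand (assembly R64). Capitals mark the letters ACCCNNNCA, a form of the site that Rap1 binds, searched on both strands. Other forms of the site were not searched, so a window without capitals may still hold one. The windows lie at chrXI:158213-158512 on the plus strand for RPS27A, chrVIII:148770-149069 on the minus strand for RPS27B, chrXVI:404550-404849 on the plus strand for RPS9A and chrII:604108-604407 on the plus strand for RPS9B.
RPS27A: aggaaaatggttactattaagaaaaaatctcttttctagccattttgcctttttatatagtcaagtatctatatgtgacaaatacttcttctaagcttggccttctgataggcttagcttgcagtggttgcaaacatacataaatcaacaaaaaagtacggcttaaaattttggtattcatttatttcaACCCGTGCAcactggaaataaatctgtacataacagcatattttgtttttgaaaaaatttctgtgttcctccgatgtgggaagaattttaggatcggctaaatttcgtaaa
RPS27B: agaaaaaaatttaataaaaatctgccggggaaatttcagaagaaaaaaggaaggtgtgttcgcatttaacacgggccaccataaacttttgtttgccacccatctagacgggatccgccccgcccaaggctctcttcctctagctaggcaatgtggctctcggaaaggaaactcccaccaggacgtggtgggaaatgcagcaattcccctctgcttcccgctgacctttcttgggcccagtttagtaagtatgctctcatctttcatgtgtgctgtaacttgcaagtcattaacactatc
RPS9A: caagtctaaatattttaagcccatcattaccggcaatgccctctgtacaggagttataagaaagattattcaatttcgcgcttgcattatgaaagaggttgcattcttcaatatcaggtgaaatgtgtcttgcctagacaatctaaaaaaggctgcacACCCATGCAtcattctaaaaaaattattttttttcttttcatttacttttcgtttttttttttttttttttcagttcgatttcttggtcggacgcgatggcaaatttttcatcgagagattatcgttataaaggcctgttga
RPS9B: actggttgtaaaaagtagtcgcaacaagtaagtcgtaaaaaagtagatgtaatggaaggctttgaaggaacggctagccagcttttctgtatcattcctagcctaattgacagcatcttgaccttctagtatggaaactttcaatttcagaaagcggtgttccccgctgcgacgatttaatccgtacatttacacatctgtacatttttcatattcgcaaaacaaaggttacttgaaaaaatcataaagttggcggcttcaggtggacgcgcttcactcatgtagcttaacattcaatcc

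The A copies of RPS27 and RPS9 each held 1 match in this window, and no match to these letters was found in the windows of their B copies. The first bases of the RPS27A window overlap the end of the neighbouring gene APE2. Over the small subunit 21 of 57 windows held a match (36.8%), against 36 of 81 for the large subunit (44.4%) and 9.03% of the 5916 windows of all annotated genes. The other letters searched were as frequent among the 57 windows as among all windows, or less so. The Abf1 motif was in 35.1% against 34.5%, the stress element AGGGG in 17.5% against 23.8%, AAAATTTT in 8.77% against 9.20% and GATGAG in 14.0% against 17.8%.

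Small-subunit genes together held between 1.87% and 5.99% of all TPM as group means, lowest in YJM975 in glucose and highest in RM11 in glycerol. In glucose the share was 3.26 ± 0.110% in RM11 and 1.87 ± 0.0251% in YJM975 (SD, n = 3). In glycerol it was 5.99 ± 0.137% and 2.84 ± 0.0957%, and in ethanol 4.85 ± 0.124% and 5.40 ± 0.207%. The 3 libraries of each strain did not overlap in any medium, with YJM975 below RM11 in glucose and glycerol and above it in ethanol. An exact permutation test of 3 against 3 libraries cannot go below p = 0.1 (two-sided), which each medium reached. Permuting the strains within media gave a difference of -1.33 percentage points over the 3 media (exact two-sided permutation p = 0.00925), an average over media in which the sign differed.

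**Figure D1:**
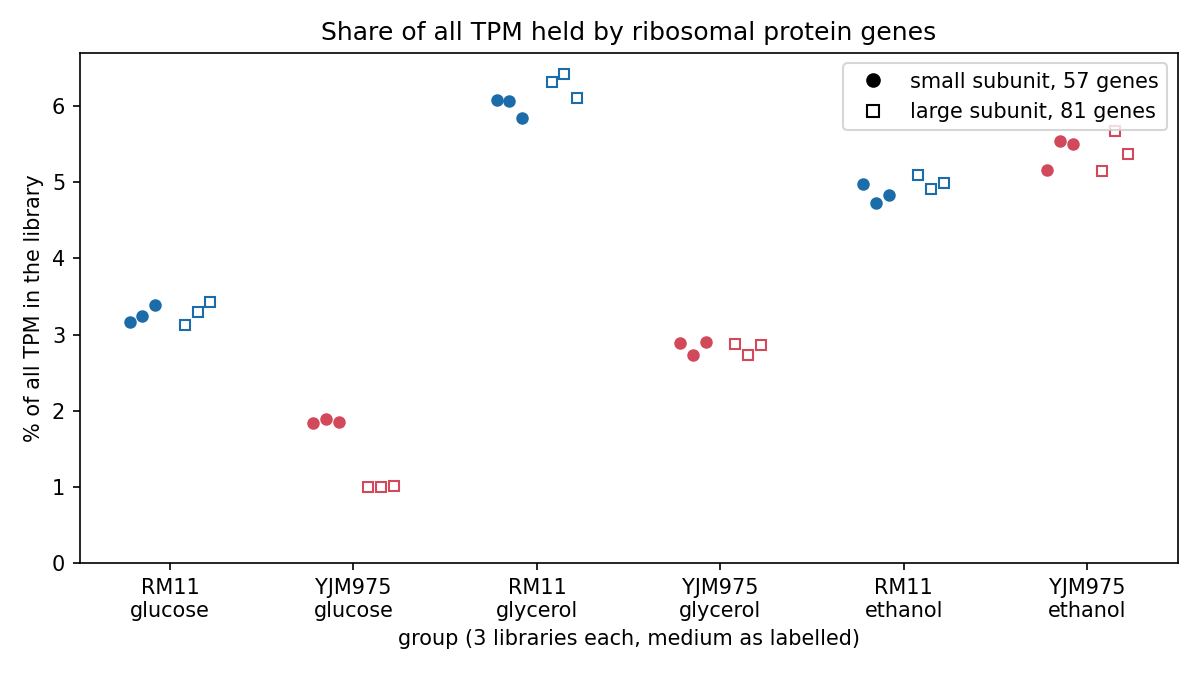
Share of all TPM (vertical axis, percent) held by the 57 small-subunit genes (filled circles) and by 81 large-subunit genes (open squares) in each of the 3 libraries of the 6 groups (horizontal axis, blue for RM11 and red for YJM975). Both subunits held similar shares in 5 groups, and in YJM975 in glucose the small subunit held 1.87% and the large subunit 1.00%.

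The balance between the subunits was unlike the other groups in YJM975 in glucose. The small subunit's share divided by that of the 81 large-subunit genes was 1.86 ± 0.0222 there, against 0.995 ± 0.0175 in RM11 in glucose, and the other group means lay between 0.955 and 1.01. Without RPS27A, RPS30A and RPS30B, which were set aside after their values were seen, the share in YJM975 in glucose was 0.815 ± 0.0105% and that in RM11 in glucose 2.57 ± 0.0868%. These 3 genes, out of 57, thus held more of the TPM in YJM975 in glucose than the other 54 together. The large subunit held 1.00% in YJM975 in glucose and 3.28% in RM11 in glucose. No genes were set aside from the large subunit. Setting genes aside from the small subunit alone lowers its share by construction, so its place below the large subunit without them is not read as a result.

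Levels ranged widely among genes whose products are needed in equal number. RPS30A, whose short basic protein lies near the decoding site, was highest in every group, at 4581 (RM11) and 6936 TPM (YJM975) in glucose and from 4480 to 6142 TPM in the others. RPS9A was lowest in 4 groups, at 37.5 to 96.5 TPM. ASC1, the scaffold protein known as RACK1 in animals, was lowest in YJM975 in glucose at 12.6 TPM, and RPS6A was lowest in YJM975 in ethanol at 142 TPM. The highest level was 43.2 to 119 times the lowest in 5 groups and 549.5 times in YJM975 in glucose. With the copies of each pair summed, RPS30 was highest and ASC1 lowest in all 6 groups. Shorter coding sequences went with higher TPM over the 57 genes (Pearson's r -0.415 to -0.57 in the 6 groups, a description over genes that share libraries), and the TPM of very short transcripts depends on the length the software assumes they have.

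**Figure D2:**
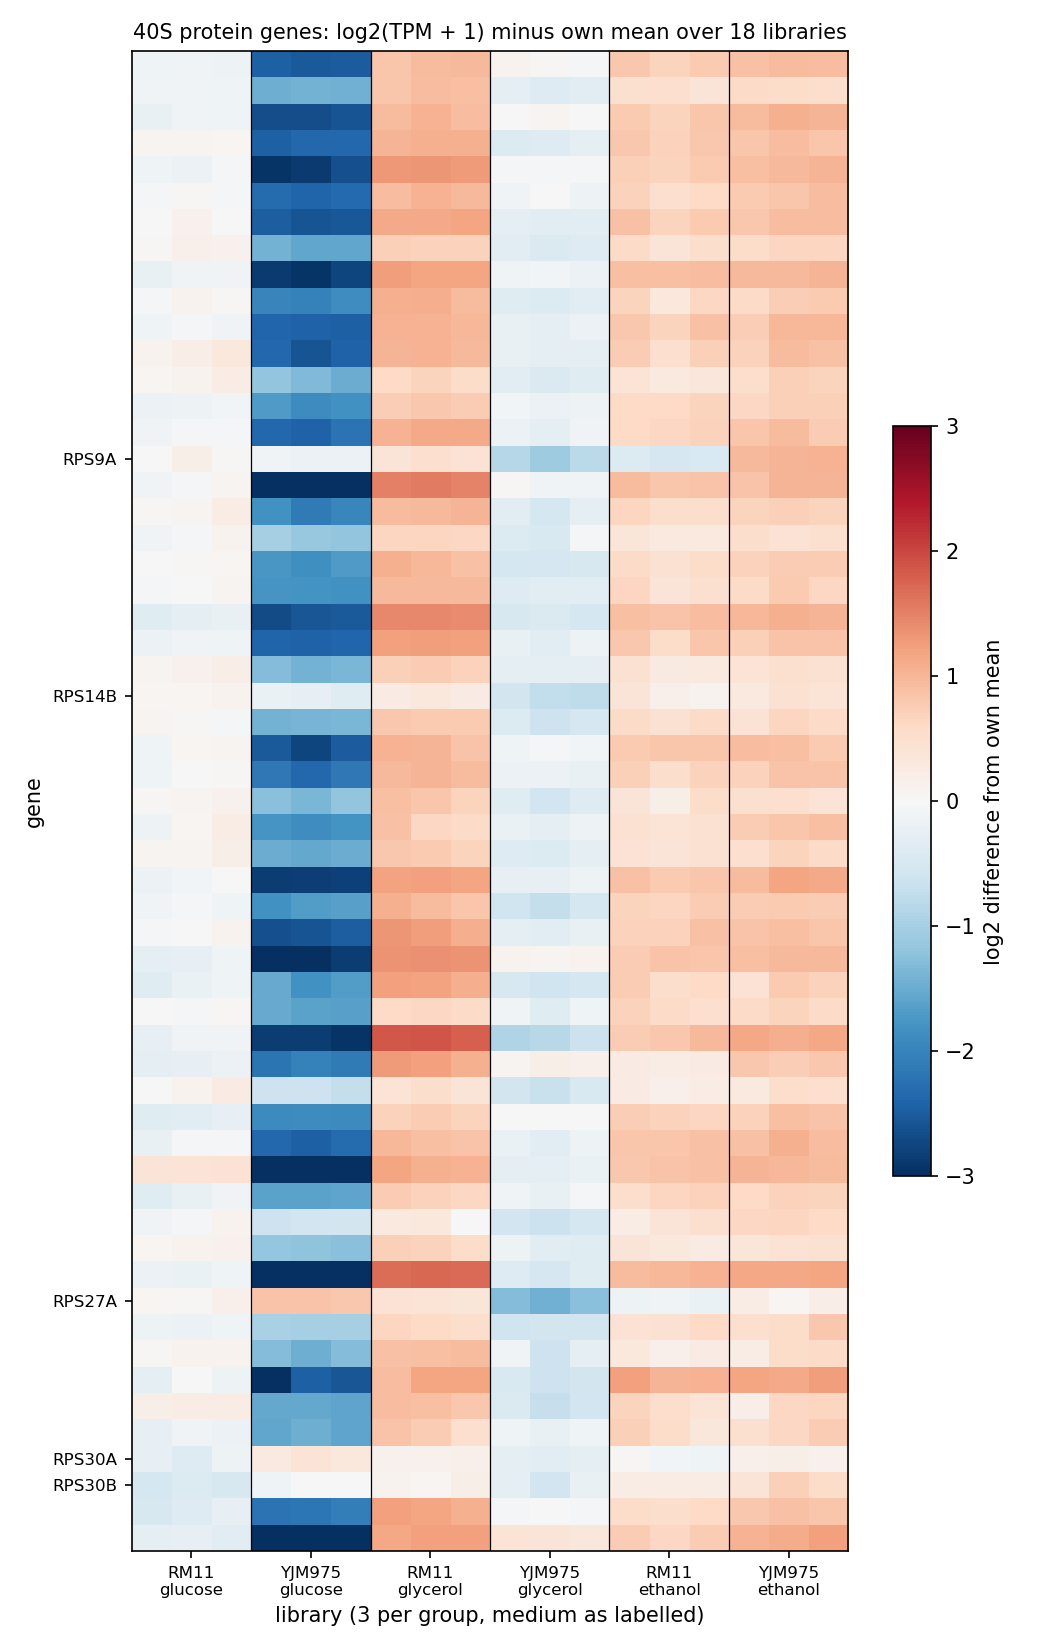
Level of each of the 57 genes (rows, with the 5 named below labelled) in each of the 18 libraries (columns, 3 per group), as log2(TPM + 1) minus the gene's own mean over all libraries, with blue below and red above the mean; the colour scale ends at 3 in either direction. The block of YJM975 in glucose is blue for nearly all genes, with RPS27A light red and RPS30A, RPS30B, RPS9A and RPS14B pale.

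In glucose YJM975 held less mRNA of nearly every small-subunit gene than RM11. Differences are log2(TPM + 1) with the standard error of limma, and a gene is called at a Benjamini-Hochberg adjusted p below 0.05 over 6309 genes, all 57 included. Of the 57, 54 were lower, against 60.7% of all genes, and 3 were higher, against 22.5%. The median difference was -1.80, and that of all tested genes was -0.38. For 54 genes every YJM975 library lay below every RM11 library, against 61.5% of all genes, and for the other 3 every one lay above, against 22.5%.

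All 23 head genes were lower in YJM975 in glucose, against 60.7% of all genes, with a median of -1.84. RPS20, which lies in the head beside the path of the mRNA, stood at 903, 925 and 1001 TPM in RM11 and at 133, 130.0 and 152 TPM in YJM975. The mean of RPS20 was thus 6.82 times lower. ASC1 was at 95.3, 99.4 and 93.4 TPM in RM11 and at 12.9, 11.7 and 13.3 TPM in YJM975, which differed by -2.83 ± 0.06 (limma adjusted p = 3.5e-17). The groups of both genes stood far apart. RPS25B, whose protein is needed for initiation at some internal ribosome entry sites, had the smallest difference in the head, at -0.56 ± 0.08 (limma adjusted p = 3.74e-06).

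Of the 34 body and platform genes, 31 were lower and 3 higher in YJM975 in glucose, against 60.7% and 22.5% of all genes. Their median was -1.80, close to the -1.84 of the head. RPS24B fell furthest among the 57, from 386, 390.2 and 401 TPM in RM11 to 33.2, 32.7 and 35.9 TPM in YJM975, which differed by -3.49 ± 0.05 (limma adjusted p = 8.04e-19). RPS9B, which encodes a protein of the decoding centre known for its part in translational accuracy, stood at 139, 141 and 158 TPM in RM11 and at 15.5, 13.0 and 15.5 TPM in YJM975, which differed by -3.23 ± 0.07 (limma adjusted p = 5.81e-17). RPS26B, of the exit side of the mRNA channel, stood at 334, 330.5 and 344 TPM in RM11 and at 33.4, 37.1 and 44.5 TPM in YJM975, which differed by -3.11 ± 0.07 (limma adjusted p = 1.21e-16). In each of these 3 cases the other copy of the pair differed less. The RPS24 copies share 53.7% of their 31-base words, so the values of RPS24B alone are less certain.

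RPS27A, RPS30A and RPS30B were the 3 genes that were higher in YJM975 in glucose. RPS27A, one of the genes for a zinc-binding protein of the platform, stood at 1220.3, 1198 and 1304 TPM in RM11 and at 2112, 2115 and 2039 TPM in YJM975, which differed by 0.75 ± 0.05 (limma adjusted p = 6.79e-10). RPS30A stood at 4621, 4181 and 4940.4 TPM in RM11 and at 6700.1, 7268 and 6842 TPM in YJM975, which differed by 0.60 ± 0.06 (limma adjusted p = 3.24e-08). RPS30B stood at 1058, 1153 and 1095 TPM in RM11 and at 1406, 1516 and 1514 TPM in YJM975, which differed by 0.42 ± 0.08 (limma adjusted p = 1.40e-04). The libraries of the strains did not overlap for any of the 3. With quantile normalization the difference of RPS30A was 0.16 (limma adjusted p = 0.0544), no longer called.

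RPS9A had the smallest difference of the 54 lower genes in glucose, whereas RPS9B had one of the largest. It stood at 71.5, 80.3 and 73.5 TPM in RM11 and at 66.5, 62.7 and 63.4 TPM in YJM975, which differed by -0.22 ± 0.06 (limma adjusted p = 0.00364). RPS14B, whose splicing is known to be inhibited by its own protein, differed by -0.34 ± 0.07 (limma adjusted p = 2.90e-04).

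**Figure D3:**
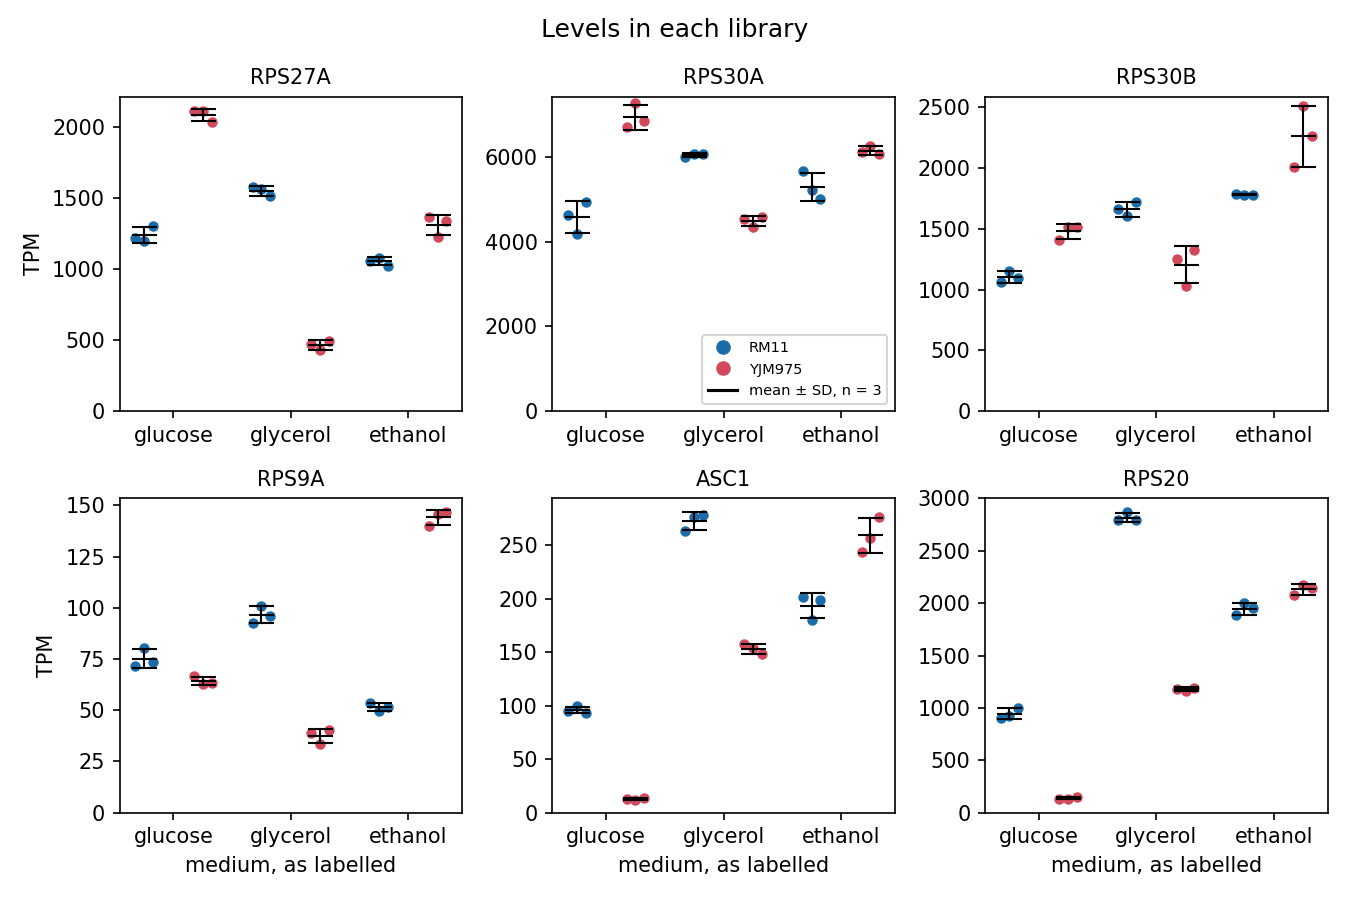
TPM (vertical axis, each panel with its own scale from 0) of RPS27A, RPS30A, RPS30B, RPS9A, ASC1 and RPS20 in every library, with the mean ± SD of 3 libraries in black, RM11 in blue and YJM975 in red. ASC1 and RPS20 were lowest in YJM975 in glucose, whereas RPS27A and RPS30A were highest there and RPS9A was highest in YJM975 in ethanol.

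A second fit over the whole table set each gene against the median of the small subunit in each library, a centring that by its construction places the 57 genes on both sides of 0, so the counts on each side are not read as a result. On that scale 95.9% of all genes were called in either direction between the strains in glucose. The strain difference in glucose, YJM975 minus RM11, was 2.61 ± 0.07 for RPS27A and 2.46 ± 0.06 for RPS30A. It was 2.28 ± 0.08 for RPS30B and 1.64 ± 0.06 for RPS9A. At the other end it was -1.63 ± 0.07 for RPS24B and -1.37 ± 0.07 for RPS9B.

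In glycerol all 57 genes were lower in YJM975, against 70.1% of all genes, and 0 were higher by limma (also 0 at an unadjusted p below 0.05), against 16.2%. The median difference was -1.24, with -0.59 for all tested genes. For all 57 every YJM975 library lay below every RM11 library, against 70.2% of all genes. When the median of all genes was subtracted from each library, RPS30A and RPS30B turned to 0.26 (limma adjusted p = 0.00152) and 0.22 (limma adjusted p = 0.0519).

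RPS22A, which encodes a protein of the body, differed most in glycerol. It stood at 385, 392 and 368 TPM in RM11 and at 56.4, 59.0 and 67.2 TPM in YJM975, which differed by -2.63 ± 0.07 (limma adjusted p = 4.59e-16). RPS26B differed by -2.12 ± 0.07 (limma adjusted p = 1.38e-14) and RPS12, a single-copy head gene, by -1.91 ± 0.05 (limma adjusted p = 4.93e-16). RPS30A, RPS30B and RPS23B, the last encoding a protein of the decoding centre, differed least, at -0.43, -0.47 and -0.71, the last -0.02 and not called after median centring. RPS27A, higher in YJM975 in glucose, had the largest difference among the 37 genes with an intron in glycerol. It stood at 1579.8, 1568 and 1514 TPM in RM11 and at 476, 428 and 490.3 TPM in YJM975, which differed by -1.74.

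In ethanol the strains lay close together. Of the 57, 22 were higher in YJM975, against 26.8% of all genes, and 0 were lower by limma (also 0 at an unadjusted p below 0.05), against 21.2%. The median was 0.14, with 0.03 for all tested genes. For 30 genes every YJM975 library lay above every RM11 library, against 29.8% of all genes, and the other 27 had overlapping libraries. With the median of all genes subtracted, 14 were higher. RPS29A (-0.05 ± 0.10), RPS21A (0.01 ± 0.09) and RPS15 (0.02 ± 0.06) were at the low end and were not called.

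One gene stood apart in ethanol. RPS9A was at 53.6, 49.8 and 51.3 TPM in RM11 and at 140.1, 146 and 147 TPM in YJM975, which differed by 1.47 ± 0.06 (limma adjusted p = 5.5e-12). The next was RPS22B, whose intron holds a small nucleolar RNA, at 309, 303 and 310.1 TPM in RM11 and 456, 434 and 456 TPM in YJM975, which differed by 0.55 ± 0.06 (limma adjusted p = 3.99e-07). ASC1 followed, at 201, 180.2 and 199 TPM in RM11 and 243, 257 and 276 TPM in YJM975, which differed by 0.42 ± 0.06 (limma adjusted p = 1.5e-05). The strains did not overlap for any of the 3.

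**Figure D4:**
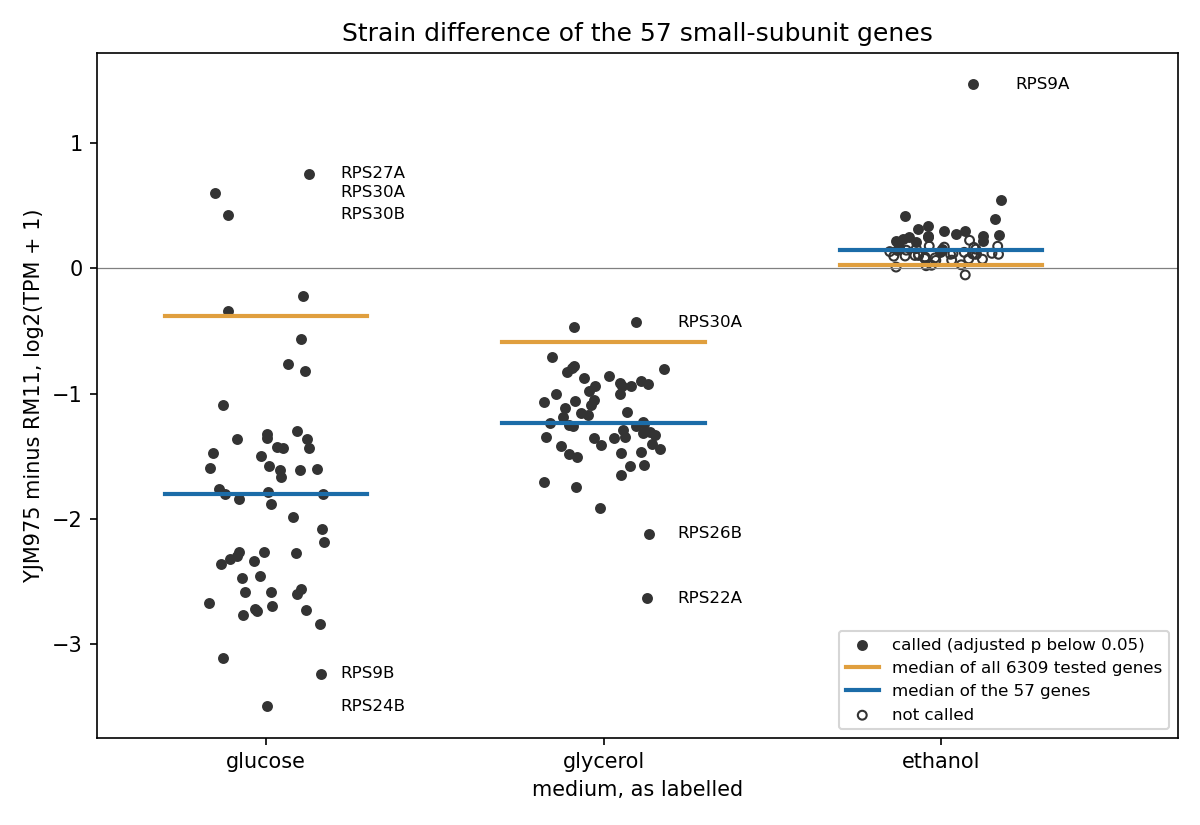
Difference between the strains, YJM975 minus RM11 in log2(TPM + 1) (vertical axis), of each of the 57 genes in each medium (horizontal axis; points are spread sideways only for legibility; filled points were called and open points were not), with the median of the 57 genes in blue and that of all tested genes in orange. The points lie between -3.49 and 0.75 in glucose, between -2.63 and -0.43 in glycerol, where RPS30A and RPS30B turned to 0.26 and 0.22 after median centring, and around 0 in ethanol except RPS9A at 1.47.

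Within RM11, small-subunit mRNA was lowest in glucose and highest in glycerol. From glucose to glycerol all 57 genes were higher, against 53.0% of all genes, and 0 were lower by limma (also 0 at an unadjusted p below 0.05), against 28.7%, with a median of 0.97 and 0.23 for all genes. RPS22A, RPS26B and RPS12 rose most, by 1.99 ± 0.07, 1.86 ± 0.07 and 1.73 ± 0.05 (limma adjusted p = 3.34e-14, 1.62e-13 and 3.49e-15). The smallest rises were those of RPS14B (0.19 ± 0.07), RPS25B (0.22 ± 0.08) and RPS27A (0.32 ± 0.05), which after median centring were -0.09, -0.05 and 0.05 and not called. The calls of the former pair of genes were also lost when single libraries were left out: RPS14B without RM11 glucose replicate 1 or 2 or RM11 glycerol replicate 2, RPS25B without RM11 glucose replicate 1 or RM11 glycerol replicate 1 or 2 (limma adjusted p = 0.0589 to 0.0870).

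From glucose to ethanol in RM11, 52 genes were higher, against 32.0% of all genes, and 2 were lower, against 37.4%, with a median of 0.68 and -0.03 for all genes. RPS28B (1.25 ± 0.13), RPS12 (1.19 ± 0.05) and RPS26B (1.16 ± 0.07) rose most. The 2 that fell were RPS9A, by 0.53 ± 0.06 (limma adjusted p = 8.86e-07), and RPS27A, by 0.23 ± 0.05 (limma adjusted p = 0.00117), the latter not called after quantile normalization. From glycerol to ethanol, 47 were lower, against 54.1% of all genes, and 0 higher by limma (also 0 at an unadjusted p below 0.05), against 21.4%, with a median of -0.34 and -0.23 for all genes. After median centring the split was 10 higher and 17 lower. RPS22A (-0.99 ± 0.07), RPS22B (-0.95 ± 0.06) and RPS9A (-0.89 ± 0.06) fell most.

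In YJM975 the order of the media was glucose, glycerol, ethanol. From glucose to glycerol 50 genes were higher, against 41.2% of all genes, and 5 were lower, against 42.6%, with a median of 1.59 and -0.02 for all genes. ASC1 rose most, from 12.9, 11.7 and 13.3 TPM to 157, 154 and 148 TPM, by 3.50 ± 0.06 (limma adjusted p = 1.81e-18), followed by RPS9B (3.19 ± 0.07) and RPS20 (3.08 ± 0.05). RPS27A fell by 2.17 ± 0.05 (limma adjusted p = 3.42e-16), from at least 2039 TPM to at most 490.3 TPM in any library. RPS9A, RPS30A, RPS14B and RPS30B also fell (-0.76, -0.63, -0.41 and -0.30), of which RPS30A was not called after quantile normalization.

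From glucose to ethanol in YJM975, 55 genes were higher, against 56.5% of all genes, and 2 lower, against 30.3%, with a median of 2.65 and 0.35 for all genes. RPS26B rose most, from 33.4, 37.1 and 44.5 TPM to 847, 838 and 853 TPM, by 4.44 ± 0.07 (limma adjusted p = 5.76e-19), and was 22.1 times higher in the means. ASC1 (4.25 ± 0.06) and RPS9B (4.22 ± 0.07) followed. RPS27A fell by 0.67 ± 0.05 (limma adjusted p = 2.31e-09). RPS30A fell by 0.17 ± 0.06 (limma adjusted p = 0.0100), a call that was lost without YJM975 glucose replicate 2 (limma adjusted p = 0.0540) and that turned to 0.38 after quantile normalization. From glycerol to ethanol all 57 were higher, against 64.0% of all genes, and 0 lower by limma (also 0 at an unadjusted p below 0.05), against 13.1%, with a median of 1.02 and 0.36 for all genes. RPS22A (1.93 ± 0.07), RPS9A (1.92 ± 0.06) and RPS28B (1.74 ± 0.13) rose most, and RPS30A least (0.46 ± 0.06, or 0.03 and not called after median centring).

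The strains' responses to a medium were then compared directly, as the YJM975 change minus the RM11 change. For glycerol minus glucose, 41 genes differed upwards, against 31.5% of all genes, and 6 downwards, against 46.7%. RPS24B (2.14 ± 0.07), ASC1 (2.01 ± 0.08) and RPS9B (1.66 ± 0.10) lay at one end and RPS27A (-2.49 ± 0.08), RPS9A (-1.12 ± 0.09) and RPS30A (-1.03 ± 0.08) at the other. For ethanol minus glucose, 54 differed upwards, against 56.5%, and 2 downwards, against 20.2%, the 2 being RPS27A (-0.44 ± 0.08) and RPS30A (-0.38 ± 0.08, -0.01 and not called after quantile normalization). For ethanol minus glycerol all 57 differed upwards, against 65.4%, and 0 downwards by limma (also 0 at an unadjusted p below 0.05), against 15.4%. RPS22A (2.93 ± 0.10) and RPS9A (2.81 ± 0.09) differed most, and RPS30A least (0.65 ± 0.08, or -0.08 and not called after median centring).

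Within a pair, the copies were rarely at the same level. The A and B copies were compared as log2 ratios in a fit over 61 A and B pairs of all gene families. The ratio differed from 1 in 22 of 24 small-subunit pairs in RM11 in glucose, against 93.4% of the 61, and in 24 in YJM975 in glucose, against 96.7%. The counts were 20 (83.6%) and 22 (93.4%) in glycerol and 21 (90.2%) and 21 (93.4%) in ethanol for RM11 and YJM975. All these counts lie near the shares among the 61 pairs, so they are not read as particular to the small subunit. By group means the A copy held more than the B copy in all 6 groups for 8 pairs, RPS14, RPS16, RPS25, RPS26, RPS28 and RPS30 among them, and the B copy held more for 4 (RPS6, RPS21, RPS22 and RPS29). In the other 12 pairs the higher copy differed between groups. For RPS7, RPS9, RPS10, RPS19 and RPS27 it was YJM975 in glucose alone that had the other copy on top by group means. For RPS7 and RPS10 another group lay near equal levels, with libraries on both sides. The A copy of RPS7 held 49.5%, 50.2% and 50.4% in RM11 in glucose. That of RPS10 held 53.7%, 50.9% and 48.4% in YJM975 in glycerol. The higher copy was not counted over pairs of other gene families.

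The RPS9 pair moved furthest. The A copy held 34.0%, 36.3% and 31.8% of the pair's TPM in the RM11 libraries labelled glucose and 81.1%, 82.9% and 80.4% in those of YJM975. In glycerol it held 18.5 ± 0.444% in RM11 and 20.9 ± 1.58% in YJM975, and in ethanol 15.9 ± 0.131% and 33.3 ± 0.820% (SD, n = 3). The strain difference of the log2 ratio was 3.01 ± 0.07 in glucose, 0.23 ± 0.07 in glycerol and 1.39 ± 0.07 in ethanol. The strains did not overlap in glucose or ethanol, and in glycerol the lowest YJM975 library was at 19.6% and the highest RM11 library at 18.8%.

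RPS27 came next. Its A copy held 45.4%, 45.2% and 46.5% in RM11 and 71.4%, 71.9% and 71.0% in YJM975 in glucose. In glycerol the order of the strains was the reverse, 38.7 ± 0.426% in RM11 and 29.5 ± 1.66% in YJM975, and in ethanol they stood at 31.2 ± 1.84% and 34.2 ± 2.62%. The difference of the log2 ratio was 1.57 ± 0.08 in glucose and -0.59 ± 0.08 in glycerol (limma adjusted p = 7.53e-07), and 0.20 ± 0.08 in ethanol (limma adjusted p = 0.0554), not called. The coding sequences of these copies share no word of 31 bases.

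RPS26 and RPS28 both shifted towards the A copy in YJM975. The A copy of RPS26 held 82.9% in RM11 and 94.5% in YJM975 in glucose, 66.4% and 81.9% in glycerol and 71.6% and 70.9% in ethanol, with log2 ratio differences of 1.81 ± 0.09, 1.19 ± 0.09 and -0.05 ± 0.09, the last not called. RPS28A, one of the genes for a small head protein, held 76.8% and 87.9% in glucose, 71.1% and 76.7% in glycerol and 60.8% and 62.8% in ethanol. RPS22 shifted towards the B copy: the A copy held 30.1% in RM11 and 18.5% in YJM975 in glucose, 39.1% and 17.6% in glycerol, and 38.4% and 34.4% in ethanol, and the difference was called in all 3 media (-0.85 ± 0.07, -1.57 ± 0.07 and -0.25 ± 0.07). RPS22A lies next to RPS14B on chromosome X, on opposite strands with 298 bases between them. The downstream ends of the genes face each other, so the space between them is not a shared upstream region. RPS22A had a strain difference of -2.73 in glucose where RPS14B had one of -0.34.

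**Figure D5:**
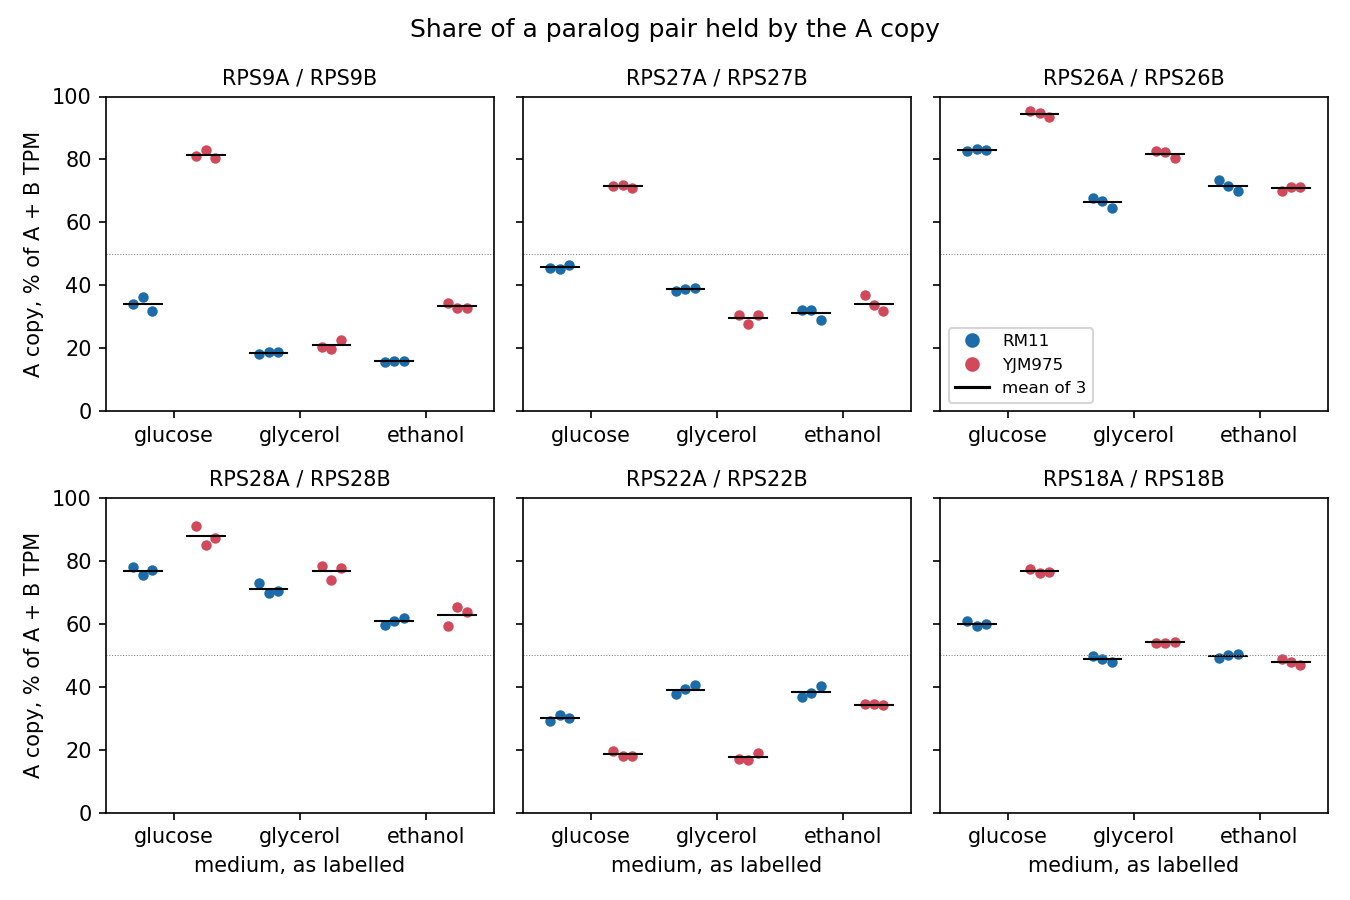
Share of a pair's summed TPM held by the A copy (vertical axis, percent, with a dotted line at equal levels) in each library for 6 pairs, with RM11 in blue, YJM975 in red and the mean of 3 libraries in black. RPS9, RPS27, RPS26, RPS28 and RPS18 were at their highest in YJM975 in glucose (81.5%, 71.5%, 94.5%, 87.9% and 76.8%), and RPS22 was lower in YJM975 in every medium.

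Over all 24 pairs the ratio differed between the strains in 20 in glucose, against 82.0% of the 61 pairs, in 19 in glycerol, against 85.2%, and in 5 in ethanol, against 31.1%. In glucose 11 pairs shifted towards A and 9 towards B in YJM975. Averaged over the media 20 pairs differed, against 80.3%, led by RPS9 (1.54 ± 0.04), RPS26 (0.98 ± 0.05), RPS22 (-0.89 ± 0.04), RPS28 (0.55 ± 0.08), RPS7 (-0.53 ± 0.04) and RPS10 (-0.48 ± 0.04). The A share of RPS6 moved little, from 18.4% to 26.4% over the group means. These counts lie near the share called among all A and B pairs or below it.

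Between media the ratio changed in all 24 pairs from glucose to glycerol in YJM975, against 95.1% of the 61 pairs, and in 18 in RM11, against 75.4%. From glucose to ethanol it changed in 21 pairs in YJM975 (86.9%) and 17 in RM11 (78.7%), and from glycerol to ethanol in 18 (82.0%) and 18 (75.4%). RPS9 had the largest change in YJM975, -3.96 ± 0.07 from glucose to glycerol, followed by RPS27 (-2.58 ± 0.08), RPS26 (-1.91 ± 0.09) and RPS23 (-1.80 ± 0.06). The strains differed in how the ratio changed in 21 pairs from glucose to glycerol (83.6% of the 61), 22 from glucose to ethanol (83.6%) and 17 from glycerol to ethanol (80.3%). In 20 of the 24 pairs YJM975 in glucose had the highest or the lowest A share of the 6 groups. This was not counted over the 61 pairs, so it is not read as particular to the small subunit. Across pairs, the strain difference of the A copy in glucose was only loosely related to that of the B copy (Pearson's r 0.321, Spearman's rho 0.112, 24 pairs whose copies share libraries), with a median distance between the copies of 0.91 and a largest of 3.01, that of RPS9.

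Summing the copies removes any error in dividing reads between them. In glucose 31 of the 33 proteins were lower in YJM975 by their summed TPM and RPS30 was higher (0.57 ± 0.05, limma adjusted p = 3.11e-08), against 60.4% lower and 22.6% higher of the 6248 genes and sums tested. RPS27 alone was not called: its copies summed to 2715 ± 80.0 TPM in RM11 and 2923 ± 46.4 TPM in YJM975, which differed by 0.11 ± 0.05 (limma adjusted p = 0.0681). Opposite differences of RPS27A (0.75) and RPS27B (-0.82) lay behind this sum. In glycerol all 33 were lower, against 69.8% of genes and sums, from -0.44 for RPS30 to -1.91 for RPS12. In ethanol 18 were higher, against 26.8%, led by RPS22 (0.45 ± 0.05), ASC1 (0.42 ± 0.06) and RPS9 (0.41 ± 0.05).

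The 9 single-copy genes have no A or B partner, and sequence they may share with other genes was not examined. In glucose 9 of 9 were lower in YJM975, against 60.7% of all genes. Their median was -2.33, from -1.43 for RPS15 to -2.83 for ASC1. RPS31, which makes ubiquitin fused to a ribosomal protein, stood at 720.4, 761 and 836 TPM in RM11 and at 212.5, 221 and 235 TPM in YJM975. Genes with an intron had a median of -1.80 in glucose and those without one -2.28, and the 3 genes that were higher all have an intron. In glycerol these medians were -1.18 and -1.27, and in ethanol 0.14 and 0.13. For genes with and without the Rap1 letters in the window the medians were -1.84 and -1.78 in glucose, -1.18 and -1.24 in glycerol and 0.15 and 0.13 in ethanol.

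Genes that work with the small subunit were counted in the same fit, and each count is read against the share of all genes called in that direction. For YJM975 against RM11 these shares were 60.7% lower and 22.5% higher in glucose, 70.1% lower and 16.2% higher in glycerol, and 26.8% higher in ethanol. Of 22 genes for factors that assemble the subunit, 16 were lower and 3 higher in YJM975 in glucose, with a median of -0.32 beside -0.38 for all genes, so the glucose values lay near the background. In glycerol 21 of the 22 were lower, with a median of -1.69 beside -0.59 for all genes, and in ethanol 19 were higher, with a median of 0.37 beside 0.03. EMG1, a methyltransferase for the small-subunit RNA, differed by -3.04 in glycerol, and RRP12, an export factor, by -2.82. From glucose to glycerol 19 of the 22 were higher in RM11, against 53.0% of all genes. In YJM975 15 of the 22 were lower over the same change of medium, against 42.6%, and 3 were higher, against 41.2%. Of 14 genes of initiation factors and other proteins that bind the subunit, 12 were lower and 1 higher in YJM975 in glucose, 14 lower in glycerol and 11 higher in ethanol. Their medians were -0.91, -1.29 and 0.19. The 1 that was higher in glucose was SUI1, which encodes the initiation factor that guards start codon choice, at 0.52 ± 0.06. Of 16 genes for regulators of ribosomal protein genes, 8 were higher and 7 lower in glucose, 13 lower and 3 higher in glycerol, and 9 higher in ethanol. Their median in glycerol was -0.60, near that of all genes. In glucose the regulators ranged from ABF1, a DNA-binding factor at promoters, at -1.94 ± 0.06 to DOT6, a repressor of ribosome biogenesis genes, at 1.30 ± 0.13. RAP1, whose protein binds the promoters of ribosomal protein genes, differed by 0.55 ± 0.07 in glucose, and SCH9, a kinase that signals downstream of TORC1, by 0.55 ± 0.07. IFH1, a coactivator of ribosomal protein genes, differed by -0.22 ± 0.06 in glucose and by -1.97 in glycerol. The 81 large-subunit genes had medians of -1.96 in glucose, -1.26 in glycerol and 0.17 in ethanol. Of them 79 were lower in glucose, against 60.7% of all genes, 81 were lower in glycerol, against 70.1%, and 43 were higher in ethanol, against 26.8%.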

How the data were processed

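Transcript abundance was measured by mRNA sequencing in 18 yeast libraries. The deposited values are TPM, estimated by the authors with kallisto per the submitters' processing notes. The sources used here give neither its version nor its settings or transcript sequences. TPM holds no depth, and reads shared by similar copies are divided by likelihood. Names were matched to the R64 annotation (5929 of 6612; 683 unmatched).

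The 6309 transcripts that averaged 1 TPM or more were fitted with limma (3.58.1, R 4.3.3) on log2(TPM + 1), 6 group means in 1 fit, the variance trended on level, and p-values adjusted by Benjamini-Hochberg within each contrast (threshold 0.05). Differences understate the change of low genes. The same fit was run on values relative to the small-subunit median, on pair sums and, without trend, on log2 ratios of 61 A and B pairs. The scripts were tested on simulated data. Shares of TPM were compared with exact permutation tests. Tables and figures were made with Biopython 1.88, NumPy 2.4.6, matplotlib 3.10.9, SciPy 1.17.1 and pandas 2.3.3 in Python 3.11.15.

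Replicate numbers were tested for pairing and do not pair the libraries. Named with full statistics were the 3 members with the highest and the 3 with the lowest log2 change in each contrast, single-copy members, and the pairs with the largest mean ratios (6), strain differences averaged over media (6) and medium changes (4 each). Other members given with statistics, such as RPS9A, RPS14B and RPS25B in glucose, RPS27A in glycerol and the pair RPS18, were chosen after their values were seen. The members and lists were chosen with earlier results of these data known. Alternatives covered the pseudocount, filter, scaling, samples fitted, replicate block, empirical Bayes and each library left out. Results that name some members are not reported here.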

Additional observations from a re-analysis of the deposited data

Results flagged for a closer look

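Some small-subunit genes changed in opposite directions in the strains, with a called difference between the strains in limma. Between glucose and glycerol this held for 5 genes (RPS9A, RPS14B, RPS27A, RPS30A and RPS30B), which rose in RM11 and fell in YJM975. For RPS14B the rise in RM11 turned to -0.09 after median centring, and it was not called without RM11 replicate 1 or 2 in glucose or replicate 2 in glycerol (limma adjusted p of 0.0658, 0.0589 and 0.0775). For RPS27A the rise in RM11 was 0.05 after median centring and no longer called (limma adjusted p = 0.516). For RPS30A the fall in YJM975 was -0.07 after quantile normalization and no longer called (limma adjusted p = 0.385). Between glucose and ethanol it held for 2: RPS9A, which fell in RM11 and rose in YJM975, and RPS30A, which rose in RM11 and fell in YJM975 (0.38, a rise, after quantile normalization, and -0.14 without YJM975 replicate 2 in glucose, limma adjusted p = 0.0540). Between glycerol and ethanol it held for 47, which fell in RM11 and rose in YJM975. This count rests on the scaling, since 17 fell in RM11 after median centring. Over all genes, 54.1% were called lower in RM11 and 64.0% higher in YJM975 from glycerol to ethanol. The log2 ratio of A to B changed in opposite directions in 3 pairs between glucose and glycerol (RPS21, RPS22 and RPS24), in 1 between glucose and ethanol (RPS24) and in 8 between glycerol and ethanol, among them RPS4, RPS9, RPS21, RPS23, RPS26, RPS27 and RPS29. Opposite calls were not counted over all genes or over the 61 pairs, so these counts are not read as particular to the small subunit. The contrasts with glucose also compare sequencing runs, whose part in these results was not tested.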

How the results depend on the processing

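Of the values of single named genes and pairs under the alternatives, 2766 kept direction and call, 18 lost a call, 6 gained one and 6 reversed. The reversals after median centring were RPS30A (0.26) and RPS30B (0.22) between strains in glycerol, RPS14B (-0.092) and RPS25B (-0.054) from glucose to glycerol in RM11, and RPS30A (-0.083) in the strain difference of ethanol minus glycerol. After quantile normalization RPS30A reversed from glucose to ethanol in YJM975 (0.38). Median centring also gave 1 gene higher in YJM975 in glycerol in place of 0, 14 in ethanol in place of 22, and 10 higher and 17 lower from glycerol to ethanol in RM11 in place of 0 and 47. Quantile normalization gave 1 lower from glucose to ethanol in RM11, 3 lower from glucose to glycerol and 1 lower from glucose to ethanol in YJM975, and 1 lower in the strain difference of ethanol minus glucose, in place of 2, 5, 2 and 2. Counting 33 sums in place of 57 genes lowers the counts by construction: strain differences gave 1 higher and 31 lower in glucose and 33 lower in glycerol. In RM11 the sums gave 33 higher from glucose to glycerol, 33 higher and 0 lower from glucose to ethanol and 31 lower from glycerol to ethanol. In YJM975 they gave 31 higher and 2 lower, 32 higher and 0 lower, and 33 higher. The strain differences of the changes gave 2 lower for glycerol minus glucose, 31 higher and 1 lower for ethanol minus glucose, and 33 higher for ethanol minus glycerol. Replicates with the same number did not deviate together (correlations of -0.217 to 0.159, median -0.00812, and -0.162 to 0.249 for different numbers). With the replicate block 1 pair ratio was higher in YJM975 in ethanol in place of 2, and the other counts stayed within 1.5 times. The same count was 1 with only the groups compared and 1 without the glucose libraries, an alternative chosen after seeing the data. Without the 50 most abundant transcripts the shares of TPM were 5.32% and 3.23% in glucose, 9.19% and 5.58% in glycerol and 8.10% and 8.75% in ethanol (RM11, then YJM975). Without RPS27A, RPS30A and RPS30B, also chosen after seeing the data, they were 2.57% and 0.815%, 5.07% and 2.23%, and 4.03% and 4.43%. Leaving out 1 library at a time gave 0 to 1 genes higher from glycerol to ethanol in RM11 and 1 to 2 lower from glucose to ethanol in YJM975. In ethanol it gave 1 to 3 pair ratios higher and 1 to 4 lower in YJM975. Relative to the small-subunit median it gave 3 to 7 genes higher and 0 to 2 lower in YJM975 in ethanol, and 5 to 10 higher from glycerol to ethanol in RM11. The sums gave 1 to 2 higher in YJM975 in glucose. TPM keeps no depth, so no counting error can be given.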
